A study of Mus musculus with 3 samples.

Results

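Macrophages that carry transcripts of *Mrc1*, *Pf4*, *F13a1* or *Cd163* were described in the mouse lacrimal gland (LG), the gland that secretes the watery part of the tears. Members were chosen by UMI counts (unique molecular identifiers, each marking 1 captured RNA molecule). A cell needed at least 3 UMIs summed over these 4 genes, at least 2 UMIs over *Csf1r*, *Adgre1*, *C1qa*, *C1qb*, *Cd14* and *Lyz2*, at most 1 UMI of *Cpa3*, and 0 UMIs of *Epcam* and *Col1a1*. Cells at or below 500 UMIs or 200 genes, or with 15% or more of their UMIs from mitochondrial genes, were set aside first. These limits left 19592 cells in 3 libraries, of which 121 were members. They are called *Mrc1+ Pf4+* Mφ below, Mφ standing for macrophages. The name is a label, since the rule sums the 4 genes and not every member held both *Mrc1* and *Pf4*.

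The study profiled the intact LG of C57BL/6J mice aged 2 months with 10x single-cell RNA sequencing, with no treatment and no transgene. Each library was made from the LGs of 3 mice, pooled and digested together. There was 1 female library and there were 2 male libraries. The sexes were prepared at different core facilities and on different days, so sex cannot be told apart from either, and no test of sex was made. Values are given in the order female library, male library 1 and male library 2 throughout.

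MRC1 (CD206) is a mannose receptor that takes up glycoproteins, PF4 is a heparin-binding chemokine known mainly from platelets, F13A1 is a transglutaminase that crosslinks proteins, and CD163 takes up haemoglobin bound to haptoglobin. Together they mark tissue-resident macrophages of connective tissue and vessels in many organs. Such cells clear debris and dying cells, handle iron and lipid, and secrete chemokines. Macrophages are often placed between an inflammatory (M1) state, with IL-1 and TNF, and an alternatively activated (M2) state.

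Members numbered 52, 52 and 17 in the 3 libraries. They made up 0.627% of the cells of the female library (exact binomial 95% interval 0.468 to 0.821), 0.932% of male library 1 (0.696 to 1.22) and 0.298% of male library 2 (0.173 to 0.476). Male library 2 thus lay below male library 1, with intervals that do not meet, so the spread between the 2 male libraries was as large as any difference from the female library. Intervals here cover counting error only. The limit of 3 UMIs was the same in all libraries, although the female library was deeper. With cells thinned at random to 1000 UMIs, and shallower cells left out, the shares were 0.284% (0.180 to 0.426), 0.697% (0.491 to 0.959) and 0.202% (0.097 to 0.370). Of the myeloid cells passing the same gate on the 6 myeloid genes, members were 3.42%, 6.999% and 2.51%. No member barcode occurred in more than 1 library.

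Most myeloid cells held none of the 4 genes that chose the members. In the female library 1298 of 1520 gated cells had 0 UMIs of them, 146 had 1 and 24 had 2, just outside the threshold, against 8 cells with 3, just inside it, and 22 cells with 8 or more. The cells with 2 UMIs in the female library held 1 *Ccl8* UMI, and the 8 cells with 3 UMIs held 0. In male library 2 the 16 cells with 2 UMIs held 34 *Ccl8* UMIs (1129 CPM, the UMIs of a gene scaled to an equal total for each sum of cells) and the 5 cells with 3 UMIs held 10 (1477 CPM). In male library 1 the 20 cells with 2 UMIs held 8 *Ccl8* UMIs (166 CPM) and the 10 cells with 3 UMIs held 5 (332 CPM), both below the 2186 CPM over all its members.

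**Figure D1:**
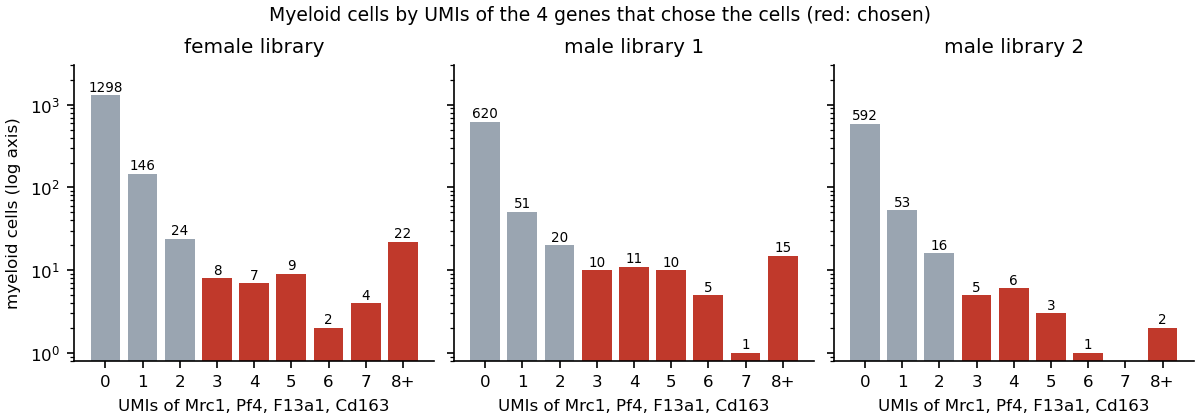
Number of gated myeloid cells (vertical, log axis) by their summed UMIs of *Mrc1*, *Pf4*, *F13a1* and *Cd163* (horizontal), 1 panel per library, with the chosen cells in red. Counts fall from 1298, 620 and 592 cells at 0 UMIs to 8, 10 and 5 cells at 3 UMIs.

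The genes of the rule are given as a description, without a test. *Pf4* was found in 46 of 52, 50 of 52 and 17 of 17 members, *Mrc1* in 41, 33 and 6, *F13a1* in 20, 22 and 6 and *Cd163* in 6, 9 and 4. Both *Mrc1* and *Pf4* were seen in 35, 32 and 6 members, so *Pf4* was the marker that most members shared. All 4 genes were seen in 4, 2 and 2 members. *Mrc1* was seen in fewer members of the male libraries, which are shallower, and the part of depth in this was not tested. *Pf4* stood at 1423, 2329 and 2585 CPM. *Mrc1* stood at 801, 552 and 337 CPM, and *F13a1* at 277, 475 and 299.7 CPM. The macrophage genes *C1qa* (4126, 3367 and 4684 CPM) and *Csf1r* (634, 287 and 187 CPM) were present in every library. *Lyz2*, the lysozyme of myeloid cells, stood at 7071, 4614 and 4496 CPM, against 871, 936 and 723 CPM in the other *C1q+* Mφ.

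The defining genes of platelets and megakaryocytes (*Ppbp*, *Itga2b*, *Gp9*, *Gp1bb* and *Gp6*), 5 of 5, were at 0 UMIs in members of all libraries, which bears on the platelet gene *Pf4*. Neutrophil markers were at 0 as well. Of the monocyte markers, *Ccr2* had 144 CPM in female members, and 44.2 and 0 CPM in those of the male libraries, against 36.3, 22.0 and 19.2 CPM in the other *C1q+* Mφ described below. *Ly6c2* had 25, 1 and 0 UMIs and *Plac8* 32, 0 and 0 UMIs, those of the female library in 1 cell for each gene, and *Chil3* was at 0. The dendritic markers summed to 69.2, 22.1 and 0 CPM in members, with *Cd209a*, *Flt3* and *Ccr7* at 0. Markers of endothelial, mural, epithelial, fibroblast, T, B and mast cells reached at most 177 CPM in any library. Of the 70227, 61851 and 58183 barcodes over 500 UMIs that were not called as cells, 0 held 3 UMIs of the 4 genes of the rule.

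Members were compared with the other *C1q+* Mφ of the same libraries, which passed the same limits with at most 2 UMIs of the 4 genes and at least 2 UMIs of *C1qa* and *C1qb*. These numbered 1392, 598 and 569 cells. Members had no such *C1q* limit, and 4, 1 and 0 of them lay below it. Another 76, 93 and 92 gated cells below it, with at most 2 UMIs of the 4 genes, were in neither group. The part of this unequal limit in the differences below was not tested. Depth was alike, with medians of 3349, 1674 and 1621 UMIs per member and 3579, 1805 and 1479 per comparator. Tear-product RNA of acinar cells, most of it free in the suspension, took 22.0, 43.4 and 37.2% of the UMIs of members and 27.1, 49.5 and 56.7% of those of comparators. Uncalled barcodes with 500 to 2000 UMIs carried 77.5, 85.9 and 85.6% tear-product UMIs. Because of this dilution, fold changes are from edgeR with TMM scaling, which sets the bulk of genes level, and not from the ratio of CPM. With total UMIs in place of TMM, the median log2 fold change of all genes moved from -0.08 to 0.45. TMM takes in any shift of the bulk of genes, and the part of tear-product RNA in this one was not tested. Values below are relative to the TMM scale.

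In *Mrc1+ Pf4+* Mφ the resident macrophage genes *Maf*, *Folr2* and *Selenop*, the scavenger receptors *Stab1* and *Clec10a*, and properdin (*Cfp*) were called higher. *Il1b*, *Tnf*, *Ccl3* and *Ccl4* were called lower. Of 4214 genes tested, 134 were called higher (3.18%) and 283 lower (6.72%) at an adjusted p under 0.05 (edgeR quasi-likelihood test, Benjamini-Hochberg, library as a block, 6 sums of UMIs). Of the 134 higher genes, 125 were higher in CPM in 3 of 3 libraries, against 178 of the 283 lower genes. Total UMIs in place of TMM called 258 higher and 49 lower, including 132 of the 134 and 49 of the 283, so most of the lower calls depended on the scaling. The lower calls held 67 of the 87 ribosomal protein genes tested, 0 of which remained called with total UMIs. Without male library 1 the counts were 30 higher and 5 lower, and without the female library 82 and 149. DESeq2 called 50 and 69. In all of the 3 fits that left out a library, 23 higher genes and 3 lower genes stayed called. *Maf*, *Folr2*, *Clec10a*, *Cfp* and *Il1b* were among these, while *Selenop*, *Stab1*, *Tnf*, *Ccl3* and *Ccl4* were not. A gene near 0 in the comparators passed the filter on low counts only where members carried it, so counts and medians over the tested genes of a list are descriptions of genes that could pass. Without the filter 60 genes were called higher, 48 of them among the 134, and 294 lower, and counts over the listed genes without the filter stand beside those below where they differ.

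*Ccl8*, a chemokine for monocytes, T cells and eosinophils, is among the genes by which this population was named from these cells, so its values are a description. It reached 299.7, 2186 and 2960.0 CPM in members, against 2.04, 30.1 and 60.7 CPM in the other *C1q+* Mφ, and no member value overlapped a comparator value. The fitted log2 fold change of *Ccl8* was 5.40 ± 0.27 (SE), below that of the rarer *Ccl24* given next. Female members were the lowest: *Ccl8* was found in 11 of 52, 31 of 52 and 12 of 17 members. Unthinned, 0.431, 2.17 and 3.87% of comparators held it. After thinning every cell to 1000 UMIs, which left out 0, 2 and 2 members and 5, 11 and 54 comparators, 11.5, 52.0 and 53.3% of members kept a *Ccl8* UMI, against 0.144, 1.70 and 3.50% of comparators. Lymphoid cells, which should lack it, held *Ccl8* in 0 of 414, 0 of 42 and 0 of 66 cells, which allows shares of up to 0.725, 7.14 and 4.55%, at medians of 2525, 1426 and 1144 UMIs. Fibroblasts held 40.1, 58.3 and 31.7 CPM.

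**Figure D2:**
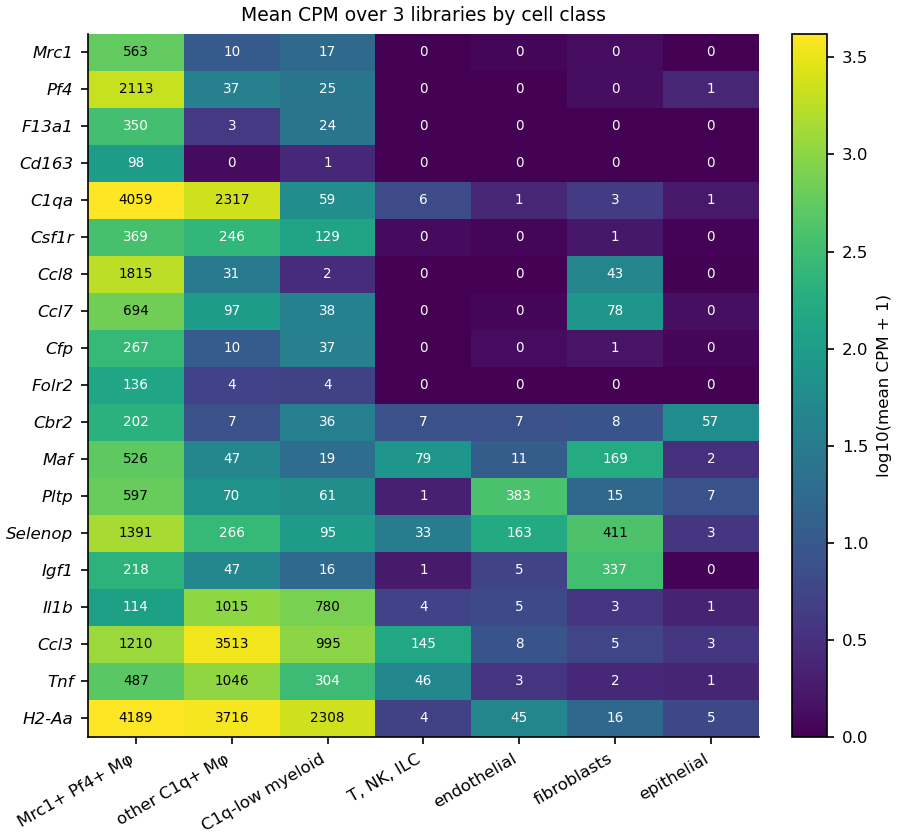
Mean CPM over the 3 libraries (number and color, the color on a log10 scale of CPM + 1) of 19 genes in 7 cell classes. *Mrc1*, *Pf4*, *F13a1* and *Cd163* chose the first column, *C1qa* and *Csf1r* took part in the choice, and *Ccl8* has 1815 CPM there against 30.9 CPM in the other *C1q+* Mφ.

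The chemokine ligands split. Of 18 listed, 15 were tested, and 6 were higher and 7 lower, with a median log2 fold change of 0.49 against -0.08 over all genes tested. Without the filter 4 of 18 were higher and 7 lower, with *Ccl2* and *Ccl9* no longer called. *Ccl8*, *Ccl2*, *Ccl7* and *Ccl12* lie in 1 cluster on chromosome 11 (mm10, GENCODE vM21: *Ccl2* 82035571-82037453, *Ccl12* 82101845-82103400, *Ccl8* 82115185-82116799, all on the plus strand). *Ccl7*, a monocyte chemoattractant, was measured at 277, 717 and 1087 CPM in members and 58.7, 129 and 103 CPM in comparators (log2 fold change 1.99 ± 0.25, adjusted p = 6.5e-13). *Ccl12* was not called (0.49 ± 0.26, adjusted p = 0.3). *Ccl24*, an eosinophil attractant, had 3, 11 and 8 UMIs in members, or 17.3, 121 and 299.7 CPM, against 0.185, 2.44 and 0 CPM (6.103 ± 0.61, adjusted p = 5.9e-20). *Ccl7* and *Ccl24* were chosen after their values were seen. The CCL genes are close relatives, and reads shared between them could be split by the counting.

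*Ccl3* and *Ccl4*, which attract monocytes and T cells, fell. *Ccl4* had 5746, 3079.6 and 2773 CPM in members and 14448, 9175 and 6949 CPM in comparators (log2 fold change -2.09 ± 0.29, adjusted p = 1.7e-10). *Ccl3* had 2098, 894 and 637 CPM against 5004, 3081 and 2455 CPM (-2.23 ± 0.27, adjusted p = 1.4e-14). Member values lay below all comparator values for both genes. *Cxcl2*, a neutrophil attractant, also fell (-1.60 ± 0.26, adjusted p = 7.0e-08), although its 1349 to 2549.8 CPM in members overlapped the 2400.3 to 4964 CPM of comparators. *Cxcl10*, *Ccl5*, *Cxcl1* and *Cxcl16* were called lower too. No chemokine receptor of the 4 tested passed (median 0.07), while 2 were called higher with total UMIs. *Cx3cr1*, the fractalkine receptor, had a log2 fold change of -0.77 ± 0.31 (adjusted p = 0.11).

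Of 17 genes listed for tissue-resident macrophages, 11 were tested, and 8 were higher and 0 lower, with a median log2 fold change of 2.97 over the 11. Several of these had almost no comparator UMIs (1, 9 and 7 for *Folr2*, and 0, 6 and 1 for *Cd209f*). Without the filter 16 could be tested, and 9 were higher and 0 lower. *Folr2*, the folate receptor of resident macrophages (chromosome 7, 101839988-101857194, minus strand), had 51.9, 243 and 112 CPM in members and 0.185, 7.32 and 5.59 CPM in comparators (4.72 ± 0.51, adjusted p = 1.6e-17). *Cbr2*, a carbonyl reductase, had 69.2, 199 and 337 CPM against 4.63, 8.95 and 7.19 CPM (3.86 ± 0.44, adjusted p = 9.2e-16). *Cbr2* was not confined to members. The gated cells in neither group held 24 *Cbr2* UMIs (mean 35.8 CPM over libraries, standard deviation 62.0). Epithelial cells had a mean of 56.8 CPM (standard deviation 68.6). *Maf*, a transcription factor of macrophage identity on chromosome 8, had 674, 529.8 and 375 CPM against 83.8, 24.4 and 32.7 CPM (2.97 ± 0.27, adjusted p = 4.9e-24). *Selenop*, a selenium carrier, rose by 1.79 ± 0.23 (adjusted p = 1.9e-12) and *Igf1*, a growth factor, by 1.68 ± 0.29 (adjusted p = 7.6e-07). Neither stayed called in all of the fits that left out a library. *Gas6* and *Wwp1* rose by over 3 on the log2 scale.

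The other genes of the resident list did not pass the filter. *Cd209g*, a lectin receptor, had 2, 15 and 4 UMIs in members and 0, 0 and 4 in comparators, and was the ninth gene called without the filter. *Lyve1*, a hyaluronan receptor of perivascular macrophages, had 0, 3 and 0 UMIs in members. *Timd4*, a phosphatidylserine receptor of long-lived macrophages, had 3, 1 and 1 UMIs. *Vsig4* had 0 UMIs in every library. Of the members' 173527, 90595 and 26689 UMIs in all, a level under 3 UMIs could not be seen, so *Lyve1*, *Timd4* and *Vsig4* were not detectable or barely so at this depth.

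Of 16 scavenger and endocytic receptors 10 were tested, and 8 were called higher and 0 lower, with a median of 1.63. Without the filter 5 of 15 were higher and 0 lower. *Clec10a* (CD301a), a lectin for galactose-type sugars, had 15, 11 and 1 UMIs in members, or 86.4, 121 and 37.5 CPM, against 1.85, 0.813 and 2.40 CPM (5.10 ± 0.53, adjusted p = 4.5e-19). *Stab1*, a scavenger receptor, had 277, 209.7 and 187 CPM against 90.5, 32.5 and 19.2 CPM (1.63 ± 0.30, adjusted p = 3.4e-06). *Cd36*, which takes up oxidized lipid, rose by 1.35 ± 0.31 (adjusted p = 0.00067), and *Msr1*, *Clec4n*, *Cd209f* and *Fcgrt* were called higher as well. Among the genes of apoptotic cell uptake, 3 of 8 tested were higher and 0 lower: *Gas6*, which bridges dying cells to its receptors, its receptor *Mertk* (1.53 ± 0.49, adjusted p = 0.023) and *Stab1*. *Mertk* had 63.4, 99.3 and 0 CPM in members against 23.0, 8.13 and 11.2 CPM, so it was higher in 2 of 3 libraries, and it was called in 8 of 14 alternatives (adjusted p from 0.0056 to 0.93). The median of that list was -0.10, and without the filter *Gas6* and *Stab1* were called. *Axl*, another receptor of GAS6, was not called (-0.56 ± 0.32, adjusted p = 0.35).

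Complement genes other than the C1q genes of the rule were also higher. Of 8 complement genes tested, 5 were higher and 0 lower, with a median of 1.85, and without the filter 4 of 9 were higher. *Cfp* encodes properdin, which stabilizes the convertase of the alternative pathway, and lies on chromosome X at 20925454-20931555, minus strand. It had 196, 232 and 375 CPM in members, and 4.07, 14.6 and 12.0 CPM in comparators (4.26 ± 0.38, adjusted p = 2.2e-25). *C3*, the shared component of all pathways, had 86.4, 44.2 and 74.9 CPM against 6.48, 13.8 and 11.2 CPM (2.46 ± 0.51, adjusted p = 6e-05). *Cfb* passed the test but with member values that overlapped those of comparators, and *C4b* passed on 11, 2 and 1 UMIs. *C1qc* was not called (0.25 ± 0.23, adjusted p = 0.69). The rule did not count it, but comparators had to hold *C1qa* or *C1qb* UMIs and members did not. Its result is thus not independent of the choice of cells.

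Iron and lipid genes moved in part. Of 11 iron and haem genes, 4 were higher, 1 was lower and 6 were not called (median 1.07), and without the filter *Cp* alone was higher and 1 was lower. Ceruloplasmin (*Cp*), the ferroxidase that loads iron onto transferrin, had 11, 7 and 3 UMIs in members (63.4, 77.3 and 112 CPM against 3.70, 2.44 and 3.99 CPM, log2 fold change 3.84 ± 0.53, adjusted p = 7.4e-11). *Trf* (transferrin), *Hmox1* (haem breakdown) and *Slc40a1* (ferroportin, iron export) rose by 1.14, 1.09 and 2.29. Ferritin heavy chain *Fth1* was called lower (-0.96 ± 0.30, adjusted p = 0.017), a call lost with total UMIs (-0.25). Of 15 lipid-associated genes, 4 were higher and 1 lower (median -0.11), and without the filter *Pltp* alone was higher and 1 was lower. *Pltp*, which transfers phospholipids between lipoproteins, had 334, 706 and 749 CPM against 20.0, 103 and 87.0 CPM (2.66 ± 0.26, adjusted p = 4.1e-21). *Lpl* rose by 1.20 ± 0.28 (adjusted p = 0.00053). *Trem2*, the receptor of lipid-associated macrophages, was not called (-0.16 ± 0.28, adjusted p = 0.88), nor was *Apoe* (0.01 ± 0.30, adjusted p = 0.99), with 24492, 13809 and 19072 CPM in members.

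**Figure D3:**
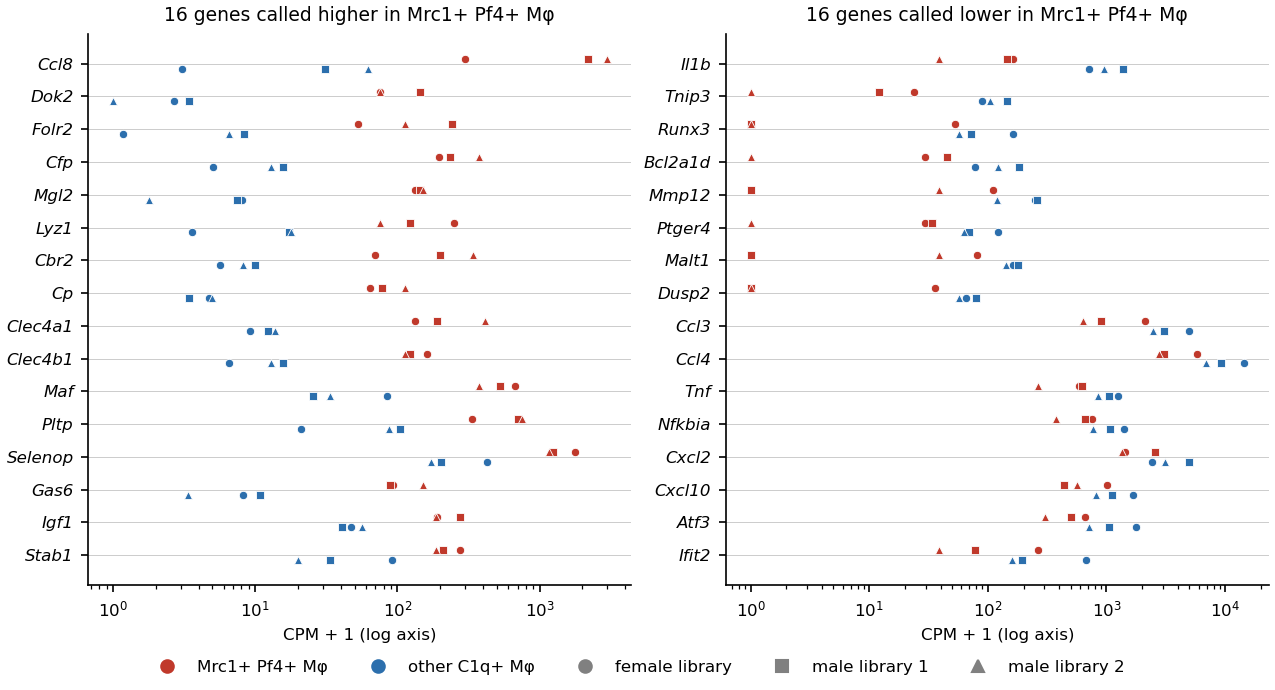
CPM + 1 (log axis) of 16 genes called higher and 16 called lower in *Mrc1+ Pf4+* Mφ (red) against other *C1q+* Mφ (blue), with 1 symbol shape per library. The 16 higher genes do not overlap between groups, while *Cxcl2*, *Cxcl10* and *Ifit2* on the right do. The genes were chosen by large fold and from the lists, which favors a lack of overlap. Its share over all tested genes was not counted.

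Further genes of largest fold among those higher in 3 of 3 libraries were *Dok2*, an adaptor of signalling (5.27 ± 0.53), and the C-type lectin receptors *Mgl2* (4.05 ± 0.45), *Clec4a1* (3.64 ± 0.39) and *Clec4b1* (3.47 ± 0.42). *Mgl2* had 133, 143 and 149.9 CPM in members and 7.03, 6.51 and 0.798 CPM in comparators. These lectins belong to families of close copies whose reads the counting could split. *Lyz1*, a near copy of *Lyz2*, had 248, 121 and 74.9 CPM against 2.59, 16.3 and 16.8 CPM (3.94 ± 0.40). Its log2 fold change fell to 1.59, and was no longer called, when the cells with a monocyte marker UMI (6 of the 52 female and 4 of the 52 male library 1 members, and comparators alike) were left out. Over all genes that step called 122 higher and 222 lower.

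Of 11 inflammatory (M1) genes tested, 9 were lower and 0 higher, with a median of -1.65. With total UMIs 8 were lower, and without the filter 10 of 14. *Il1b*, the cytokine IL-1β (chromosome 2, 129364570-129371139, minus strand), had 161, 143 and 37.5 CPM in members and 717, 1365 and 961 CPM in comparators (-3.35 ± 0.29, adjusted p = 1.9e-26). It was found in 10, 6 and 1 members, and in 60.8, 57.2 and 54.7% of comparators. After the same thinning to 1000 UMIs, 9.62, 10.0 and 6.67% of members held an *Il1b* UMI against 38.1, 48.9 and 47.2% of comparators. *Tnf* had 582, 618 and 262 CPM against 1249, 1042 and 847 CPM (-1.65 ± 0.25, adjusted p = 5.3e-09). *Nfkbia*, the NF-κB inhibitor that NF-κB itself induces, had 761, 662 and 375 CPM against 1397, 1075 and 773 CPM (-1.43 ± 0.25, adjusted p = 4.8e-07). *Il1a*, *Nlrp3*, *Ptgs2*, *Il12b*, *Tnfaip3* and *Nfkbiz* were lower too. *Cd86* (-0.58 ± 0.30, adjusted p = 0.28) and *Cd40* (0.97 ± 0.59, adjusted p = 0.4) were not called.

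Other lower genes of largest fold came from no list. *Tnip3*, an inhibitor of NF-κB signalling, had 23.1, 11.0 and 0 CPM in members and 88.3, 143 and 104 CPM in comparators (-3.17 ± 0.50, adjusted p = 4e-08). *Mmp12*, the macrophage elastase, had 109, 0 and 37.5 CPM against 250.1, 259.5 and 119 CPM (-2.42 ± 0.36, adjusted p = 3.2e-09). *Runx3* (-2.52), *Bcl2a1d* (-2.44), *Ptger4* (-2.29), *Malt1* (-2.28) and *Dusp2* (-2.24) were named by the same rule, with 0 UMIs in at least 1 male library of members. *Il1b*, *Tnip3* and *Ccrl2* were the lower genes that stayed called in all 3 fits without a library.

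For the label "M2-like", the listed genes moved both ways. Of 11 genes of alternative activation, 7 were tested, with 2 higher (*Mgl2* and *Clec10a*), 1 lower (*Il1rn*, the IL-1 receptor antagonist, -2.19 ± 0.63, adjusted p = 0.0081) and a median of -0.93. With total UMIs *Mgl2* and *Clec10a* were still called and *Il1rn* was not. Without the filter *Retnla* was called higher as well, from the UMIs described next. *Arg1* and *Chil3* had 0 UMIs in members of all libraries. *Retnla* had 99 UMIs in the female library, which lay in 2 of 52 cells, and 3 and 0 UMIs in the male libraries. *Il10* was not called (-1.39 ± 0.67, adjusted p = 0.22). *Mrc1*, often counted as an M2 gene, chose the cells and gives no support to the label.

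**Figure D4:**
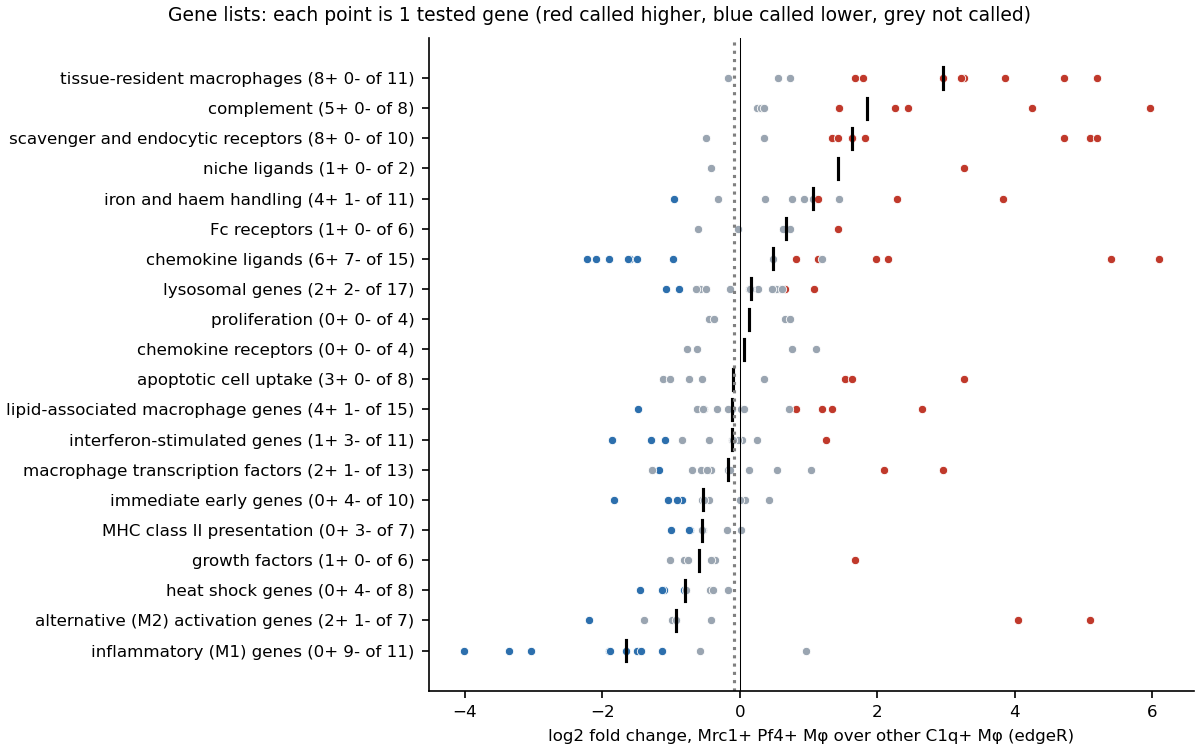
Log2 fold change (edgeR, TMM scale) of *Mrc1+ Pf4+* Mφ over other *C1q+* Mφ for each tested gene of 20 lists, with the list's median as a bar and the median of all tested genes (-0.08) as a dotted line. The resident list has 8 of 11 genes called higher, and the inflammatory list 9 of 11 called lower.

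In the remaining lists fewer genes moved. For MHC class II presentation, 0 of 7 were higher and 3 lower (median -0.55), but all 3 calls were lost with total UMIs. *Cd74*, the invariant chain, had 9612, 5927 and 5883 CPM in members and 10613, 8858 and 6802 CPM in comparators (-1.003 ± 0.29, adjusted p = 0.0078). *H2-Aa*, an MHC class II chain, had 6535, 3334 and 2698 CPM against 5367, 3298 and 2483 CPM (-0.53 ± 0.26, adjusted p = 0.22), so members were rich in MHC class II RNA. Of 17 lysosomal genes, 2 were higher and 2 lower (median 0.17), and with total UMIs 10 were higher and 0 lower, and without the filter 0 and 2. *Grn*, progranulin, rose by 1.09 ± 0.25 (adjusted p = 0.00039), while *Ctss* fell by 0.89 on the TMM scale, with overlapping CPM. Of 6 Fc receptor genes 1 was higher (*Fcgrt*, median 0.67), against 5 with total UMIs and 0 without the filter.

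Of 6 growth factors tested 1 was higher (*Igf1*, median -0.59), and of 13 transcription factors 2 were higher and 1 lower (median -0.17). *Klf2*, a factor of quiescent macrophages and endothelium, had 109, 221 and 262 CPM against 35.2, 19.5 and 18.4 CPM (2.10 ± 0.36, adjusted p = 4.9e-07). Interferon-stimulated genes had 1 of 11 higher and 3 lower (median -0.12), and 0 and 3 without the filter. *Ifitm3*, a restriction factor of viruses, had 974, 1016 and 1199 CPM against 250.4, 266 and 339 CPM (1.26 ± 0.23, adjusted p = 2.6e-06), whereas *Ifit2* fell with overlapping CPM (-1.87 ± 0.31, adjusted p = 2.5e-07) and *Isg15* without overlap (-1.29 ± 0.26, adjusted p = 3.7e-05).

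Immediate early and heat shock genes, which digestion can induce, were lower only in part and mainly on the TMM scale. In CPM, *Hspa1a*, *Hspa1b*, *Hsph1*, *Jun* and *Junb* were higher in members of both male libraries. Immediate early genes had 0 of 10 higher and 4 lower (median -0.53), and heat shock genes 0 of 8 higher and 4 lower (median -0.79), or 3 without the filter. With total UMIs, 1 immediate early gene was lower and 1 higher, and no heat shock gene was called. *Atf3*, a stress-induced factor, had 663, 497 and 299.7 CPM in members and 1768, 1042 and 718 CPM in comparators (-1.83 ± 0.25, adjusted p = 9.2e-11). The share of the stress response in the fall of *Il1b*, *Ccl3*, *Ccl4* and *Tnf*, all of which dissociation can induce, was not tested. No proliferation gene of the 4 tested was called (median 0.14), and 2, 5 and 1 members held a UMI of *Mki67*, *Top2a*, *Birc5* or *Pclaf*. Of the niche ligands, 2 of 8 were tested and *Gas6* was higher (median 1.42).

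Promoter sequences are shown for *Ccl8* and *Pltp*, which were higher, and for *Cxcl2* and *Nfkbia*, which were lower, as examples of the letters searched. They were picked because these windows hold the letters. Windows are the 250 bases before the RefSeq start (GRCm38.p6), written 5′ to 3′ on the gene's strand. In the upper pair capitals mark the PU.1 core GAGGAA and the MAF half-site TGCTGA on either strand, and in the lower pair the NF-κB consensus. PU.1 is a factor of all myeloid cells, and MAF is encoded by *Maf*.
*Ccl8*, chr11:82114935-82115184, plus strand: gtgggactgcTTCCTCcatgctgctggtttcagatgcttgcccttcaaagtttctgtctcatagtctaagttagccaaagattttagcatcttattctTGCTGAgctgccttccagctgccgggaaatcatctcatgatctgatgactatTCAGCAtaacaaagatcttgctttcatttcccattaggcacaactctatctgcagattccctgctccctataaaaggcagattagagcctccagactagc
*Pltp*, chr2:164857709-164857958, minus strand: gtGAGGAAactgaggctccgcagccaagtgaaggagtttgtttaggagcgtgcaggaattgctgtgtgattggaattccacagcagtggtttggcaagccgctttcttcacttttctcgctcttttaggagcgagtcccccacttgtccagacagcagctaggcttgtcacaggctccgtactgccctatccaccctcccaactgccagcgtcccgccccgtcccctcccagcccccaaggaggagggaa
*Cxcl2*, chr5:90903649-90903898, plus strand: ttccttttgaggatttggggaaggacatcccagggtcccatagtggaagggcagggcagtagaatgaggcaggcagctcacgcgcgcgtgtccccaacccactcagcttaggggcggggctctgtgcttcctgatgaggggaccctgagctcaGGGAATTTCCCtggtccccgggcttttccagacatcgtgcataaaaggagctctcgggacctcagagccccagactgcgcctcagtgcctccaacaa
*Nfkbia*, chr12:55492648-55492897, minus strand: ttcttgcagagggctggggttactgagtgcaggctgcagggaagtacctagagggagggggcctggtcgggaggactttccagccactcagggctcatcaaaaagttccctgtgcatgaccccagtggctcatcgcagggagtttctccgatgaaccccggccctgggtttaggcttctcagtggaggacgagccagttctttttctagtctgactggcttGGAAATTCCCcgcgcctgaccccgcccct

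The *Ccl8* window held 1 PU.1 core, 240 bases before the start, and 2 MAF half-sites, 152 and 100 bases before it. The *Pltp* window held 1 PU.1 core and no MAF half-site. In *Cxcl2* 2 overlapping NF-κB matches began 97 and 96 bases before the start, and in *Nfkbia* 1 began 29 bases before it. These are descriptions of letters, not of binding. Of the 134 higher genes 98 matched a promoter by symbol, and 33.7% of them held a PU.1 core and 19.4% a MAF half-site, against 27.6 and 14.8% of the 3416 tested genes with a promoter, and 25.9 and 18.0% of all 27025 genes of the table. Of the 283 lower genes 218 matched, and 12.8% held the NF-κB consensus, against 10.2% of higher genes, 11.6% of tested genes and 8.23% of all. The PU.1 core was in 31.2% and the MAF half-site in 14.7% of lower genes. Among the lower genes that are neither ribosomal nor tear-product genes, 16.1% held the NF-κB consensus, 35.6% the PU.1 core and 18.1% the MAF half-site.

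Members varied in MHC class II. The share of *H2-Aa*, *H2-Ab1*, *H2-Eb1* and *Cd74* in a member's UMIs outside tear-product genes ran from 0 to 7.71, 6.41 and 4.73%, with medians of 3.64, 2.46 and 2.43%. Members were split at their library's median into 26 and 26, 26 and 26, and 9 and 8 cells. Since the split cuts a range, 7, 10 and 3 cells lay near the cut. Of 436 genes tested, 1 was higher in MHC-II-high members (0.229%) and 6 were lower (1.38%) by edgeR.

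The higher gene was *Ccl3*, with 2670, 1039 and 900 CPM in MHC-II-high and 1557, 750 and 374 CPM in MHC-II-low members (0.72 ± 0.19, adjusted p = 0.012). Among the lower genes, *Ctsd*, a lysosomal protease, had 451, 884 and 1275 CPM against 2017, 1014 and 3069 CPM (-1.29 ± 0.19, adjusted p = 2.8e-08), and *Lgals3*, galectin-3, had 391.6, 730 and 1951 CPM against 908, 1543 and 2545 CPM (-0.90 ± 0.21, adjusted p = 0.0031). *Fabp5*, *Ppia*, *Ccl8* and *Hmgb2* completed them. Values overlapped between the groups for *Ccl3*, *Ctsd* and *Lgals3*. By edgeR 46 genes had an unadjusted p under 0.05. Without male library 1, and likewise without male library 2, edgeR called 0 genes, with 19 and 37 at an unadjusted p under 0.05, and DESeq2 called 0, with 6. *Maf* (0.47 ± 0.34, adjusted p = 0.69), *Selenop* (0.27 ± 0.18, adjusted p = 0.62) and *Tnf* (0.34 ± 0.35, adjusted p = 0.79) were not called.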

How the data were processed

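UMI counts per gene and barcode were deposited by the authors, 1 matrix of all barcodes and 1 of called cells per library, made with Cell Ranger 6.1.2 on mm10 per the labels. The annotation release is not given in the sources used here. The counts precede the study's DecontX correction and doublet calls. Neither was run here, and cells with another class's markers were left out as an alternative. Called cells held 63066640 UMIs (female) and 40609390 and 44661762 UMIs (males).

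Members and gene lists were chosen with earlier results of these data known. Counts were summed per library and group, without the 13 genes of the rule (nor the 4 MHC class II genes in the split), and tested with edgeR 4.0.16 in R 4.3.3 (filterByExpr, TMM, glmQLFit, glmQLFTest, library as block). Both sums of a library come from 1 suspension, hence the block. The study tested single cells, which are not replicates. P-values rest mostly on an estimate of spread that edgeR shares across genes. How a gene's own difference between both sums of a library varied over 3 pools enters only in small part. A very small p-value thus does not measure how well the 3 libraries match for that gene. Standard errors are the log2 fold change over the square root of F. Code was tested on simulated data. Alternatives were DESeq2 1.42.0, total UMIs, no filter, no block, tear-product genes left out, free RNA subtracted, depth-matched or stricter cells, and each library left out.

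Named genes were, per list, up to 4 called and 2 not called genes of highest mean CPM, and the 10 higher and 10 lower called genes of largest fold that moved alike in 3 of 3 libraries with at least 50 CPM in the higher group (in the MHC-II split, 5 each way and the resident, inflammatory and chemokine lists), leaving out tear-product, mitochondrial, ribosomal and unnamed genes. Others named with values were chosen after their values were seen. Gene positions are from GENCODE vM21 and promoters from RefSeq. Tear-product genes were 108 genes of secreted tear protein families. Some genes of the lists are not reported here by name. Counts on either strand of overlapping genes were not examined.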

Additional observations from a re-analysis of the deposited data

Results flagged for a closer look

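In 11 of the named genes the CPM difference between members and other *C1q+* Mφ lay one way in the female library and the other way in both male libraries. None of these differences between libraries was tested, since there is 1 female library, and sex goes together with core facility and day. Log2 fold changes over all libraries are on the TMM scale. The heat shock genes *Hspa1a* (-0.43), *Hspa1b* (-0.39) and *Hsph1* (-1.45) and the immediate early genes *Jun* (-0.54) and *Junb* (-0.83) were lower in female members and higher in male ones in CPM. Other genes of these lists did not share this, such as *Dnajb1* and *Atf3*, which were lower in members of all 3 libraries. *Hspa1a* had 939 CPM in female members against 1380.4 CPM, but 585 and 337 CPM against 289.6 and 294 CPM in the male libraries. *Cd86* (-0.58) lay the same way. The opposite held for the MHC class II genes *H2-Eb1* (-0.74) and *H2-Ab1* (-0.73), for *Il10* (-1.39), *Gdf15* (-0.75) and the lysosomal receptor *Scarb2* (-0.49), which were higher in female and lower in male members. *H2-Ab1* had 5279 CPM in female members against 4692 CPM, but 2517 and 2173 CPM against 3009.9 and 2347 CPM in the male libraries.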

How the results depend on the processing

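For members against other *C1q+* Mφ (134 higher, 283 lower), the calls were 50 and 69 with DESeq2, 258 and 49 with total UMIs, 60 higher (294 lower) with no filter, 28 and 14 with no library block, 62 and 151 with free RNA subtracted, 41 and 30 with comparators matched on depth (766 genes tested, with comparators cut to the number of members), and 64 and 76 with at least 5 UMIs of the 4 genes. Chosen after seeing the data, free RNA subtracted with the profile of empty droplets gave 180 lower (101 higher). Leaving out cells with proliferation or monocyte UMIs was also chosen after seeing the data. Leaving out a library gave 30 to 113 higher and 5 to 207 lower, the low ends without male library 1. The cause of these shifts was not tested. Calls in the other settings stayed within 1.5 times. Of 66 named genes that were called, 46 lost the call without male library 1. *Hsph1* was the only one of them to change sign, with -1.95 to 0.21 over the left-out libraries, the high end without the female library.

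In the MHC-II split, DESeq2, no library block, the ends of the MHC-II range without its middle, and at least 5 UMIs called 0 and 0 genes (6, 13, 17 and 7 at an unadjusted p under 0.05), no filter called 0 higher, and leaving out cells with another class's markers called 2 lower. Leaving out a library gave 0 to 3 higher and 0 to 7 lower. *Ccl8* turned from -0.74 to 0.0601 with at least 5 UMIs. No paired analysis by replicate number was possible because the sexes share 1 number.

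Member shares were 0.446, 0.555 and 0.105% with at least 5 UMIs, and 0.284, 0.697 and 0.202% after thinning to 1000 UMIs. With 17 members in male library 2, genes under about 100 CPM rest on few UMIs.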
